A study of Rattus norvegicus with 7 samples.

Results

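Microtubule-associated proteins (MAPs) and stathmins set how stable the microtubules of a neuron are. Their mRNAs were examined here in RNA that co-purified with TRF2-S, the non-telomeric splice variant of telomere repeat-binding factor 2, or with rabbit IgG. The members were the probes whose platform gene symbol is *Map1a*, *Map1b*, *Map2*, *Map4*, *Mapt*, *Dcx*, *Stmn1*, *Stmn2*, *Stmn3* or *Stmn4*. Of these 10 genes 8 had a named probe, with 11 probes in all among the 22523 on the array, 2 of them for *Map1b* and 3 for *Map4*. No probe carried the symbols *Mapt* (tau) or *Dcx* (doublecortin) in the annotation used here. The neurons were dissociated from the cerebral cortex of Sprague-Dawley rat embryos at embryonic day 18, received no other treatment according to the labels, and were lysed after 9 days in culture. The TRF2-S RIP, with a polyclonal anti-TRF2-S antibody, was measured on 2 arrays, of the Illumina rat Ref-12 type with 1 dye. The IgG RIP of the same kind of extract was measured on 5, named IgG1, IgG2, IgG3, IgG3_0 and IgG3_1x. Input RNA was not analysed here, so more of an mRNA in the pellet and more of it in the extract cannot be told apart, nor can fewer cells of a type and less RNA per cell.

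MAPs of the MAP1 and MAP2/tau families bind along the microtubule lattice and stabilize it. MAP2 is known from dendrites and the cell body, tau from axons, and MAP1B from growing axons, whereas MAP4 is found in many cell types besides neurons. Stathmins do the opposite, as they sequester soluble tubulin dimers and favour microtubule shortening. Stathmin 1 is cytosolic, and stathmins 2, 3 and 4 (also called SCG10, SCLIP and RB3) are anchored to membranes of the Golgi and of growth cones. *Map1b* mRNA is also a long known ligand of the fragile X protein FMRP.

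Each probe has a signal intensity and a detection p-value, which sets it against the negative control beads of its array. A probe was called detected at a detection p under 0.02. Mean intensities per probe were 155 and 216 (TRF2-S RIP), 163 and 201 on IgG1 and IgG2, and 298 to 608 on the 3 arrays named IgG3. Those 3 stood apart, with a Pearson r of 0.875 to 0.933 to the other 4 arrays over the 9187 probes tested, where the TRF2-S arrays correlated with IgG1 and IgG2 at 0.977 to 0.989. Each tested member probe is therefore compared with IgG1 and IgG2 alone and with all 5 IgG arrays. These 2 comparisons share the TRF2-S arrays and IgG1 and IgG2. Whether the IgG3 arrays hold separate RNA is not stated, so p-values may in part measure technical spread. Of 9 neuron markers 8 were detected on all 7 arrays, and their summed intensity was 7299 to 13276 in the TRF2-S RIP, 8964 to 11851 on IgG1 and IgG2 and 18774 to 42524 on the IgG3 arrays. Of 5 astrocyte markers 4 were detected on all arrays and *Aqp4* on none, with sums of 1278 to 2167 in the TRF2-S RIP, 1760 to 2074 on IgG1 and IgG2 and 3157 to 8526 on the IgG3 arrays. On the scaled log2 values used below, the median difference between the TRF2-S RIP and IgG1 and IgG2 was -0.26 for the 5 astrocyte markers and -0.0053 for the 9 neuron markers. Of 5 oligodendrocyte markers 1 was detected on all arrays, and *Olig2*, *Mog* and *Mag* on none. Their sums were 2349 to 4012 in the TRF2-S RIP, 3449 to 4677 on IgG1 and IgG2 and 4703 to 11303 on the IgG3 arrays. None of 4 microglia and 2 endothelial markers was detected on all arrays. The part of other cell types in the results was not tested.

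Log2 values are intensities brought to a Z-score on each array and put back on a common log2 mean of 6.98 and SD of 1.21, without background subtraction, so that differences of dim probes are understated. Each array was divided by its own log2 SD, which was 0.92 and 1.16 on TRF2-S arrays 1 and 2. It was 1.00 and 1.10 on IgG1 and IgG2, and 1.16 to 1.61 on the IgG3 arrays. The order of the arrays can therefore differ between intensity and log2 value, also for bright probes. Differences were tested with limma over the 9187 probes detected on at least 2 arrays, and called at an adjusted p under 0.05. All 8 genes with a probe had at least 1 probe tested, and 9 of the 11 probes were tested.

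**Figure D1:**
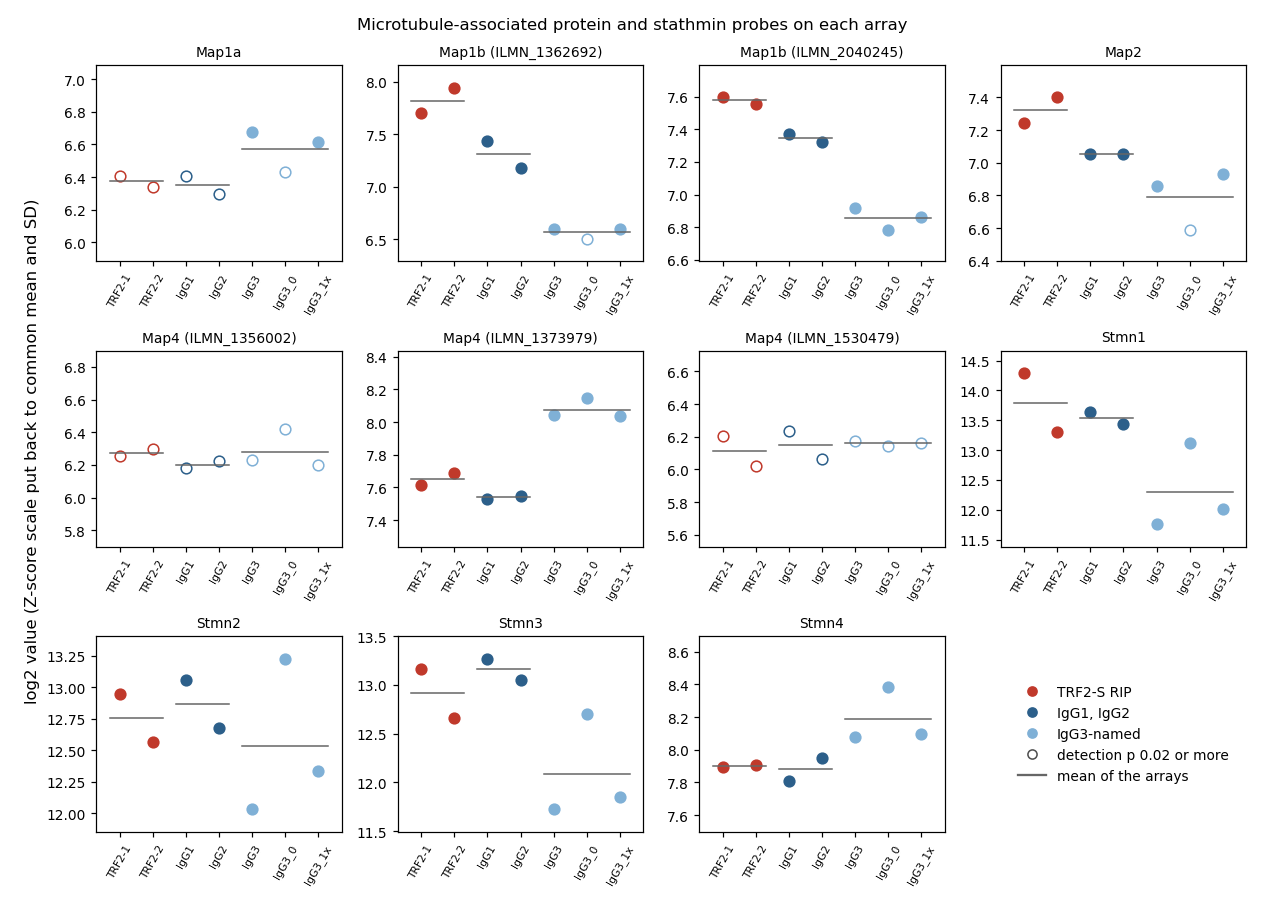
Log2 value (y axis, Z-score scale) of each of the 11 probes on the 7 arrays (x axis), with the TRF2-S RIP in red, IgG1 and IgG2 in dark blue and the IgG3-named arrays in light blue. Open circles were not detected and grey lines are means, and for *Map1b* and *Map2* both TRF2-S arrays lie above all 5 IgG arrays.

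After Z-score scaling, *Map1b* and *Map2* stood higher in the TRF2-S RIP than on every IgG array, whereas in unscaled intensity this held for 1 of the 2 *Map1b* probes and not for *Map2*. *Map1a*, *Map4* and the 4 stathmins did not separate the antibodies in this way on the scaled values. None of these differences was called. With all 5 IgG arrays as controls, limma called 0 of the 9 probes in either direction, beside 0.0327% of all tested probes called higher and 0% lower. With IgG1 and IgG2 as controls the count was again 0 in either direction, beside 0.142% and 0.0109% of all. Without adjustment for many tests, p was under 0.05 for 3 probes with 5 IgG arrays, all higher in the TRF2-S RIP, namely both *Map1b* probes and *Map2* (6.06% of all probes were higher and 6.06% lower by this measure). With IgG1 and IgG2 it was under 0.05 for 2, *Map2* and 1 *Map1b* probe, again higher (6.51% of all were higher and 6.02% lower). The median log2 difference of the 9 probes was 0.39 with 5 IgG arrays and 0.11 with IgG1 and IgG2, where the medians of all tested probes were -0.07 and 0.00476. The member median with 5 IgG arrays depended on the scaling, at 0.028 after quantile normalization (all probes -0.04), 0.048 with neqc (all probes -0.07) and -0.33 with median centring (all probes -0.34). It was also 0.14 without TRF2-S array 1, 0.20 without IgG3, 0.23 without IgG3_1x and 0.11 with the IgG3 arrays averaged. With IgG1 and IgG2 it lay between 0.095 and 0.16 under the 4 scalings, and was 0.025 without TRF2-S array 1.

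*Map1b* encodes a large MAP of the growing axon, cleaved into a heavy and a light chain. At the probe ILMN_1362692 its intensity was 142.8 and 202.4 on TRF2-S arrays 1 and 2, against 124.1 on IgG1 and 120.1 on IgG2, and 134.4, 106.2 and 122.6 on IgG3, IgG3_0 and IgG3_1x. Both TRF2-S arrays were the brightest even before scaling, and only IgG3_0 did not detect the probe. The log2 values were 7.70 and 7.94 in the TRF2-S RIP, against 7.44 and 7.18 on IgG1 and IgG2 and 6.59, 6.50 and 6.60 on the IgG3 arrays. Neither IgG subset overlapped with the TRF2-S arrays, and the 2 subsets did not overlap with each other. The log2 difference from IgG1 and IgG2 was 0.51 (standard error 0.14, 95% confidence interval 0.18 to 0.84, adjusted p = 0.22 from limma), a 1.42-fold difference, and 1.98% of all tested probes had a larger one. From all 5 IgG arrays it was 0.96 (standard error 0.28, adjusted p = 0.41 from limma), a 1.94-fold difference, with 2.45% of probes above it. The call against IgG1 and IgG2 depended on settings, since adjusted p from limma was 0.028 after quantile normalization of these 4 arrays. That setting called 318 of all 9187 tested probes higher, where Z-score scaling called 13. Without IgG1 the log2 difference was 0.64. With background correction (neqc) the log2 difference was 0.71 against IgG1 and IgG2 (adjusted p = 0.090 from limma). Against 5 IgG arrays it was 2.06 (standard error 0.68, adjusted p = 0.25 from limma). The IgG3 arrays were close to or below their lowest detected intensities here, so the size of 2.06 rests on values near background.

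The other *Map1b* probe, ILMN_2040245, had the same order with smaller steps. Its intensity was 135.3 and 157.2 on the TRF2-S arrays, against 119.4 and 131.4 on IgG1 and IgG2 and 180.4, 128.0 and 155.2 on the IgG3 arrays. In intensity IgG3 was thus the brightest array, and the TRF2-S arrays exceeded all IgG arrays only after scaling. Scaled to log2, the TRF2-S arrays had 7.60 and 7.56, against 7.37 and 7.32 on IgG1 and IgG2 and 6.92, 6.79 and 6.86 on the IgG3 arrays. The log2 difference was 0.23 against IgG1 and IgG2 (standard error 0.10, 95% confidence interval -0.02 to 0.48, adjusted p = 0.43 from limma) and 0.52 against 5 IgG arrays (standard error 0.19, adjusted p = 0.41 from limma). With neqc the difference against 5 IgG arrays was 1.18. The 2 probes lay above 0 in both comparisons under all 4 scalings tried, and the difference between them was not tested.

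*Map2*, which encodes the MAP commonly used to mark dendrites, showed the same order. Its intensity was 112.2 and 142.1 on the TRF2-S arrays, against 99.8 and 111.0 on IgG1 and IgG2 and 171.3, 112.5 and 164.6 on the IgG3 arrays. The brightest array was again IgG3 before scaling, and IgG3_0 did not detect the probe. After scaling, *Map2* had log2 values of 7.24 and 7.40 in the TRF2-S RIP, against 7.05 on both IgG1 and IgG2 and 6.86, 6.59 and 6.93 on the IgG3 arrays. The log2 difference was 0.27 against IgG1 and IgG2 (standard error 0.11, 95% confidence interval 0.01 to 0.53, adjusted p = 0.38 from limma) and 0.42 against 5 IgG arrays (standard error 0.15, adjusted p = 0.41 from limma). It lay above 0 in both comparisons under the 4 scalings, between 0.21 and 0.40 against IgG1 and IgG2 and between 0.26 and 1.10 against 5 IgG arrays.

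**Figure D2:**
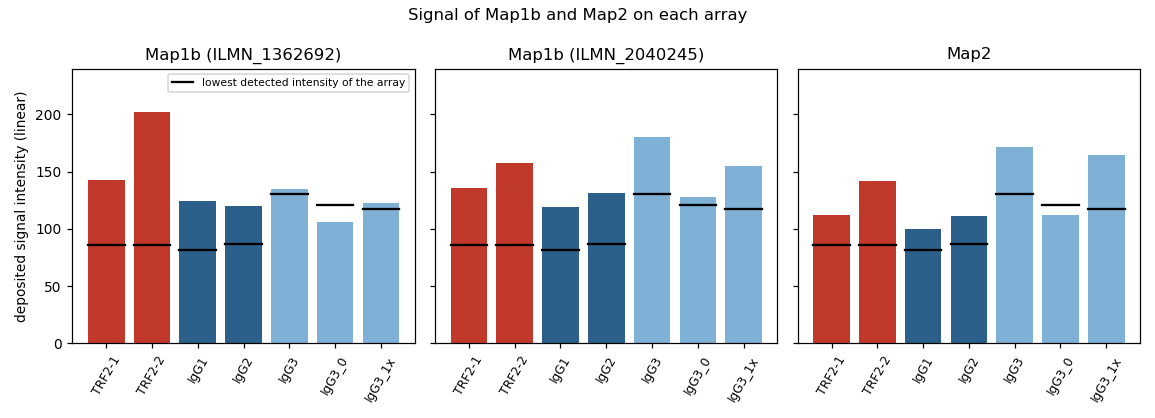
Deposited signal intensity (y axis, linear from 0) of the 2 *Map1b* probes and of *Map2* on each array (x axis), with the TRF2-S RIP in red and IgG in blue, and a black line at the lowest detected intensity of that array. The *Map1b* probe ILMN_1362692 was brightest on the TRF2-S arrays (142.8 and 202.4), whereas the other 2 probes were brightest on IgG3 (180.4 and 171.3), whose own lowest detected intensity was 130.1.

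These signals were dim. The lowest detected intensity was 86.3 and 85.6 on TRF2-S arrays 1 and 2, 81.5 and 86.5 on IgG1 and IgG2, and 117.3 to 130.1 on the IgG3 arrays.

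*Map1a*, whose product belongs to the same MAP family as MAP1B and is more abundant in mature neurons, was at background in the TRF2-S RIP. Its intensity was 72.1 and 70.5 on the TRF2-S arrays, against 69.0 and 68.9 on IgG1 and IgG2, with no detection on any of these 4. Only IgG3 (144.5) and IgG3_1x (124.3) detected it, whereas IgG3_0 (101.1) did not. Since neither group was above background, no fold is given against IgG1 and IgG2. The measured log2 difference from 5 IgG arrays was -0.11 (standard error 0.13, adjusted p = 0.62 from limma), and the background leaves no fold above 1.

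*Map4*, a widely expressed MAP, was measured by 1 of its 3 probes. The probes ILMN_1356002 and ILMN_1530479 were not detected on any of the 7 arrays, with intensities of 57.0 to 68.5 on the TRF2-S arrays, 59.7 to 65.9 on IgG1 and IgG2 and 83.3 to 100.5 on the IgG3 arrays. The third, ILMN_1373979, was detected on every array, with 136.6 and 171.8 on the TRF2-S arrays, against 130.8 and 151.8 on IgG1 and IgG2 and 506.1, 314.2 and 439.6 on the IgG3 arrays. On the log2 scale it had 7.61 and 7.69 in the TRF2-S RIP, against 7.53 and 7.55 on IgG1 and IgG2 and 8.04, 8.14 and 8.04 on the IgG3 arrays. On this scale the TRF2-S arrays lay just above IgG1 and IgG2 and below all IgG3 arrays, the reverse of the *Map1b* and *Map2* pattern on the IgG3 side. The log2 difference was 0.11 against IgG1 and IgG2 (standard error 0.11, 95% confidence interval -0.14 to 0.36, adjusted p = 0.76 from limma) and -0.21 against 5 IgG arrays (standard error 0.20, adjusted p = 0.54 from limma).

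The stathmin mRNAs overlapped between the antibodies. *Stmn1*, which encodes the cytosolic stathmin, had an intensity of 4630.8 and 7023.8 on the TRF2-S arrays, against 4231.0 and 6115.5 on IgG1 and IgG2 and 15312.6, 8409.6 and 15043.2 on IgG3, IgG3_0 and IgG3_1x. In log2 values the TRF2-S arrays had 14.29 and 13.31, against 13.65 and 13.43 on IgG1 and IgG2 and 11.76, 13.12 and 12.01 on the IgG3 arrays. On this scale TRF2-S array 1 lay above all IgG arrays and array 2 below IgG1 and IgG2. In intensity array 1 lay between IgG1 and IgG2, array 2 above both, and the IgG3 arrays above all of these. The log2 difference was 0.26 against IgG1 and IgG2 (standard error 0.29, 95% confidence interval -0.42 to 0.93, adjusted p = 0.80 from limma), with -0.23 without TRF2-S array 1 and 0.75 without array 2. With 5 IgG arrays *Stmn1* had the largest difference of the 9 probes, 1.00, but also the largest standard error, 0.57 (adjusted p = 0.41 from limma). Leaving out 1 array moved it between 0.51 (without TRF2-S array 1, where the *Map1b* probe ILMN_1362692 was higher, at 1.08) and 1.50 (without array 2). It was 0.42 after quantile normalization, 0.37 with neqc, and -0.33 with median centring, where the median of all probes was -0.34.

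*Stmn2*, which encodes the growth cone protein SCG10, had 2282.1 and 4307.0 on the TRF2-S arrays, against 3030.2 and 3814.1 on IgG1 and IgG2 and 19658.2, 9040.2 and 20027.2 on the IgG3 arrays. On the log2 scale it had 12.95 and 12.57 in the TRF2-S RIP, against 13.06 and 12.68 on IgG1 and IgG2 and 12.03, 13.23 and 12.33 on the IgG3 arrays. The antibodies overlapped throughout. The log2 difference was -0.11 against IgG1 and IgG2 (standard error 0.18, 95% confidence interval -0.53 to 0.30, adjusted p = 0.88 from limma). Against 5 IgG arrays it was 0.09 (standard error 0.33, adjusted p = 0.87 from limma), with the opposite sign under quantile normalization, neqc and median centring (-0.45, -0.44 and -1.13).

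*Stmn3*, which encodes SCLIP, had 2564.3 and 4572.4 on the TRF2-S arrays, against 3419.8 and 4825.7 on IgG1 and IgG2 and 14828.6, 6365.7 and 13006.9 on the IgG3 arrays. On the log2 scale it had 13.17 and 12.66 in the TRF2-S RIP, against 13.27 and 13.05 on IgG1 and IgG2 and 11.72, 12.70 and 11.85 on the IgG3 arrays. On this scale TRF2-S array 1 lay between IgG1 and IgG2, and array 2 below both. In intensity array 1 was below both and array 2 between them. *Stmn3* had the lowest difference of the 9 probes against IgG1 and IgG2, -0.25 (standard error 0.18, 95% confidence interval -0.67 to 0.18, adjusted p = 0.67 from limma), and 90.2% of all tested probes had a higher one. Against 5 IgG arrays it had 0.39 (standard error 0.45, adjusted p = 0.60 from limma), between 0.14 without TRF2-S array 1 and 0.65 without array 2, and with the opposite sign under quantile normalization, neqc and median centring (-0.13, -0.14 and -0.80).

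*Stmn4*, which encodes the neuronal stathmin RB3, had 158.3 and 198.1 on the TRF2-S arrays, against 153.5 and 195.3 on IgG1 and IgG2 and 525.3, 367.7 and 464.6 on the IgG3 arrays. On the log2 scale it had 7.89 and 7.91 in the TRF2-S RIP, against 7.81 and 7.95 on IgG1 and IgG2 and 8.08, 8.38 and 8.10 on the IgG3 arrays. On this scale the TRF2-S arrays lay between IgG1 and IgG2 and below the IgG3 arrays. The log2 difference was 0.02 against IgG1 and IgG2 (standard error 0.11, 95% confidence interval -0.24 to 0.28, adjusted p = 0.97 from limma) and -0.17 against 5 IgG arrays (standard error 0.16, adjusted p = 0.54 from limma), where quantile normalization and neqc turned the sign (0.03 and 0.05).

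**Figure D3:**
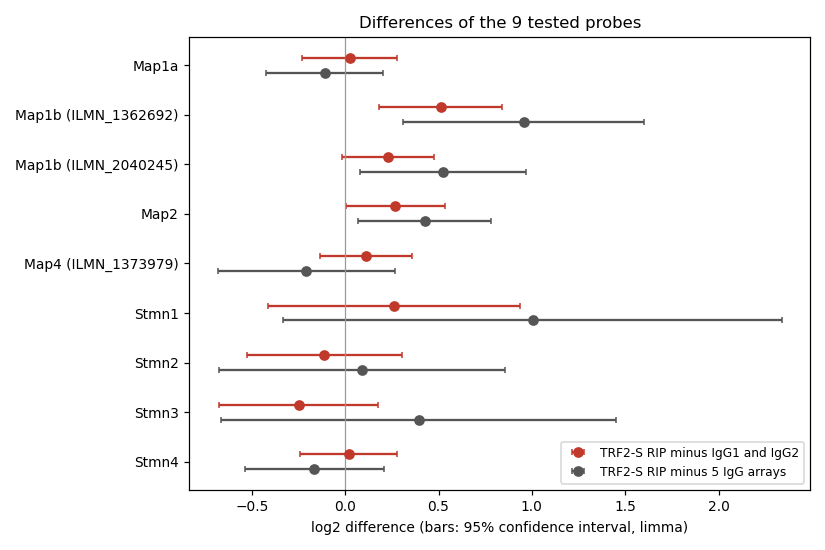
Log2 difference (x axis) of each of the 9 tested probes (y axis), TRF2-S RIP minus IgG1 and IgG2 in red and TRF2-S RIP minus 5 IgG arrays in grey, with 95% confidence intervals from limma that are not adjusted for the number of probes. The intervals of the *Map1b* probe ILMN_1362692 and of *Map2* lie above 0 in both comparisons, and that of *Stmn1* against 5 IgG arrays is the widest.

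Counted by order alone, both TRF2-S arrays lay above all 5 IgG arrays at 3 of the 9 tested probes (10.3% of all tested probes) and below them at 0 (11.6%). With IgG1 and IgG2 alone they lay above both at 4 (22.5% of all) and below at 0 (19.4%), the fourth being *Map4*. The study's selection of transcripts included limits on a z-ratio, which was computed here as a probe's gap between the group means of the Z-score, in SDs of such gaps on the whole array. With 5 IgG arrays the z-ratio passed 1.8 at 3 of the 9 probes (8.62% of all tested probes), *Stmn1* at 3.62 and *Map1b* at 3.45 and 1.89, and passed 1.5 at 4 (10.8% of all). With IgG1 and IgG2 it passed 1.8 at 1 (7.94% of all), the *Map1b* probe ILMN_1362692 at 3.34, and 1.5 at 4 (10.6% of all), the others being *Map2* at 1.76, *Stmn1* at 1.70 and *Map1b* ILMN_2040245 at 1.51. *Stmn1* therefore passed the 1.8 limit with overlapping groups, and only with the IgG3 arrays among the controls.

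How far the members depended on the choice of IgG arrays was measured by setting the 3 IgG3-named arrays against IgG1 and IgG2, which carry the same antibody. On the Z-score scale limma called 1 of the 9 probes higher and 4 lower on the IgG3-named arrays, where 27.7% of all tested probes were called higher and 17.7% lower. Both *Map1b* probes were lower, by log2 differences of -0.74 and -0.49 (adjusted p = 0.0025 and 0.0062 from limma), and kept this direction under the other scalings, but with median centring neither was called (-0.53 and -0.23). The second of them ranged over -0.52 to -0.46 with 1 array left out. It was not called without IgG1, where 1 array was left in that group. The *Map4* probe ILMN_1373979 was higher, at 0.53 (adjusted p = 0.0043 from limma), and was not called after quantile normalization (0.27), neqc (0.39) or median centring (1.03). Without IgG3_0, 3 probes were called higher and 5 lower, where 4113 and 2339 of all 9187 tested probes were.

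*Stmn1* and *Stmn3* were lower on the IgG3-named arrays on the Z-score scale, by -1.24 and -1.07 (adjusted p = 0.034 and 0.021 from limma), but higher with median centring (0.78 and 0.88, where the median of all probes was 0.55), without a call. With 1 array left out *Stmn1* ranged over -1.65 to -0.97 and *Stmn3* over -1.38 to -0.89. Neither call held without IgG1 or without IgG2, where 1 array was left in that group. Leaving out IgG3_1x ended the call of *Stmn1* (adjusted p = 0.059 from limma). In that setting 1505 of all 9187 tested probes were called higher and 1062 lower. *Stmn2* had -0.34 on the Z-score scale (adjusted p = 0.43 from limma), whereas it was 0.47 after quantile normalization and 0.44 with neqc, with calls under both (adjusted p = 0.0025 and 0.019 from limma), and 1.65 with median centring. *Stmn4* had 0.31, not called, and -0.02 with neqc. *Map2* had -0.26, not called on the Z-score scale, but was called lower after quantile normalization (-0.41, adjusted p = 0.011 from limma) and neqc (-0.96, adjusted p = 0.028 from limma). Of all 9187 tested probes, quantile normalization called 3056 higher and 2498 lower in this comparison, and neqc 2916 and 2413. *Map1a* had a measured difference of 0.22, without a call.

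**Figure D4:**
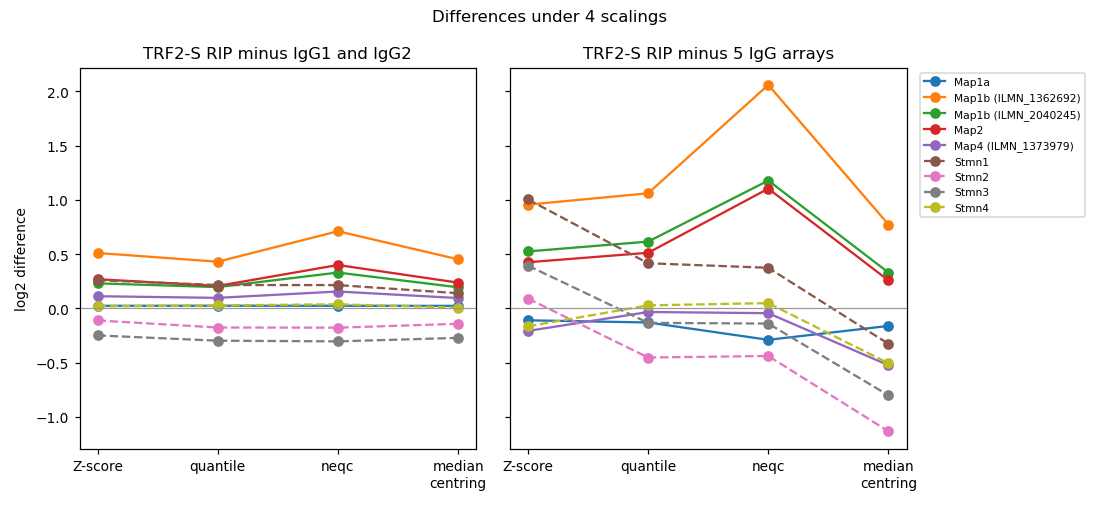
Log2 difference (y axis) of the 9 tested probes under 4 scalings (x axis), for the TRF2-S RIP minus IgG1 and IgG2 (left) and minus 5 IgG arrays (right), with MAPs as solid and stathmins as dashed lines. Against IgG1 and IgG2 no probe changed sign, whereas against 5 IgG arrays *Stmn1*, *Stmn2*, *Stmn3* and *Stmn4* changed sign under at least 1 scaling.

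Other genes that act on microtubules gave no calls either. Of 78 such genes in 5 lists 46 were tested, each at its brightest probe, and limma called 0 of them in either direction with 5 IgG arrays (0.0303% of the 6592 named genes tested were called higher and 0% lower) and 0 with IgG1 and IgG2 (0.121% and 0.0152%). Before adjustment, p was under 0.05 for 6 genes that were higher and 3 that were lower with 5 IgG arrays (5.86% and 6.96% of named genes), and for 1 that was higher and 5 that were lower with IgG1 and IgG2 (6.07% and 7.15%). Their median log2 difference was -0.22 and -0.04, beside -0.09 and -0.0041 over all named genes.

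Among structural MAPs and the doublecortin family, 7 of 14 genes were tested and 3 lay above 0 against IgG1 and IgG2, with a median of -0.08. *Map1lc3a*, which encodes a light chain that co-purifies with MAP1 and acts in autophagy, had 0.35 (standard error 0.18, adjusted p = 0.49 from limma), and *Map1s*, a shorter MAP1 relative, had -0.32 (standard error 0.17, adjusted p = 0.52 from limma). Among end-binding and nucleation genes, 13 of 18 were tested and 9 lay above 0, with a median of 0.07. *Pafah1b1*, which encodes the dynein regulator LIS1, had -0.22, and *Camsap2*, which encodes a protein of microtubule minus ends, had 0.17. Among genes of severing, depolymerization and tubulin folding, 6 of 15 were tested and 0 lay above 0, with a median of -0.13. The tubulin cofactors *Tbce* and *Tbcc* had -0.40 (standard error 0.12, adjusted p = 0.25 from limma) and -0.15. Among tubulin modifying enzymes and tau kinases, 10 of 18 were tested and 4 lay above 0, with a median of -0.03. *Gsk3a*, which encodes a kinase of tau, had 0.23, and *Svbp*, which encodes the partner of the vasohibin tubulin carboxypeptidases, had 0.25. The values so far in this paragraph are against IgG1 and IgG2. Against 5 IgG arrays the list medians were -0.08, -0.16, -0.34 and -0.10 in the same order. Above 0 were 3, 6, 1 and 4 genes. There *Map1lc3a* had 1.06, *Map1s* -0.29, *Pafah1b1* -0.68 and *Camsap2* -0.62. *Tbce* had -0.41, *Tbcc* 0.02, *Gsk3a* 0.69 and *Svbp* 0.31.

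The tubulins, whose α and β forms are the proteins that MAPs and stathmins bind, included the lowest values. Of 13 tubulin genes 10 were tested, 4 lay above 0 against IgG1 and IgG2 and the median was -0.29. Against 5 IgG arrays 3 lay above 0, and the median was again -0.29. The β-tubulin genes *Tubb4b* and *Tubb2b* had -0.58 (standard error 0.14, adjusted p = 0.19 from limma) and -0.56 (standard error 0.13, adjusted p = 0.17 from limma), with both TRF2-S arrays below IgG1 and IgG2, and -0.29 for each against 5 IgG arrays. After quantile normalization of the 4 arrays limma called *Tubb2b*, *Tubb4b*, *Tubg1* and *Tuba1b* lower (-0.52, -0.46, -0.43 and -0.43, adjusted p = 0.0061 to 0.033). It also called *Tbce* lower, only just under the threshold (-0.31, adjusted p = 0.04999 from limma). In that setting 318 of all probes were called higher and 236 lower. *Tubb3*, the neuronal β-tubulin, was the highest of the 10 against IgG1 and IgG2, at 0.48, but had -0.39 against 5 IgG arrays. There *Tuba1a* was the highest, at 2.00 (standard error 1.33, adjusted p = 0.43 from limma), with overlapping groups. It had 0.71, 0.61 and 0.37 there after quantile normalization, neqc and median centring, and 0.18 against IgG1 and IgG2. *Tubg1*, *Tuba1b*, *Tubb3* and *Tuba1a* were named after their values were seen. The α-tubulin genes are near copies of each other, as are the β-tubulin genes, so their probes may share signal.

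**Figure D5:**
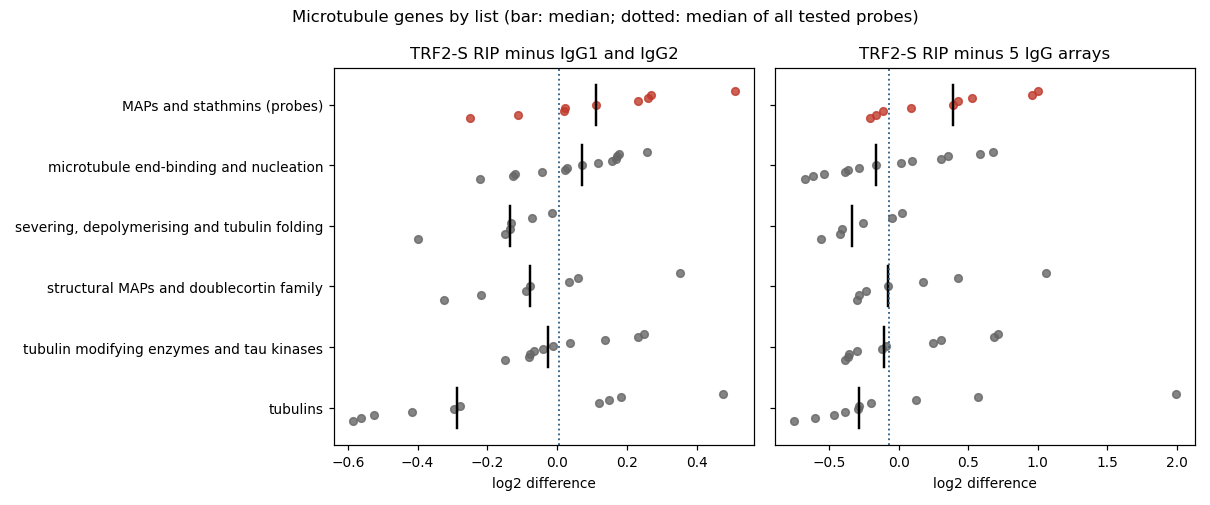
Log2 difference (x axis) of the 9 probes of MAPs and stathmins (red) and of the tested genes of 5 other microtubule lists (grey), TRF2-S RIP minus IgG1 and IgG2 (left) and minus 5 IgG arrays (right). Black bars are medians and the dotted line is the median of all tested probes, and on the left the *Map1b* probe ILMN_1362692, at 0.51, is the highest of the red points.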

How the data were processed

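The authors deposited a signal intensity per probe and array, on a linear scale and not normalized between arrays, with a detection p-value that the scanner software computed against negative control beads. The deposited score, the authors' Z-score of the log intensity within each array, was recomputed to within 5e-10 and not used further. The methods name BeadStudio 1.5 and the submitters' notes GenomeStudio 2011.1. Here log2 intensities were Z-score transformed per array, put back on the common mean and SD, and compared by limma 3.58.1 (R 4.3.3, lmFit and eBayes, Benjamini-Hochberg over 9187 probes, threshold 0.05, detection p under 0.02 on at least 2 arrays), a fit tested first on simulated data. Symbols came from the platform annotation (13793 probes with 1 symbol, 0 with several, 8730 with none), updated by gene ID through RefSeq. The genes named are all members, each probe by itself, and of each other list the 2 genes with the smallest p against IgG1 and IgG2, as well as any called. The members and lists were chosen with earlier results of these data known. Alternatives were quantile normalization, neqc (offset 16), median centring, other detection filters, left-out arrays, IgG3 arrays averaged or as a random block, the replicate number as a block, and the ANOVA and z-ratio of the methods. Intensities have no counting depth, and the number of arrays limits the precision.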

Additional observations from a re-analysis of the deposited data

Results flagged for a closer look

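At the *Map4* probe ILMN_1356002, IgG3_0 lay far above the other 4 IgG arrays, with a gap of 0.799 of the group's range on the log2 scale (6.42, against 6.18 to 6.23). The probe was not detected on any array. Among 11 probes checked in this way it was the only one past the limit, and chance flags about 1 in 20 groups.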

How the results depend on the processing

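With 2 TRF2-S arrays, and with *Map1b*, *Map2* and *Map4* signals close to background, small differences were not detectable at this precision. Both *Map1b* probes and *Map2* lay above 0 in both comparisons under every alternative run, including each left-out array (0.38 to 1.10, 0.21 to 0.60 and 0.19 to 0.51). Calls differed more. Against 5 IgG arrays, 0 member probes were called higher, but 1 with the replicate number as a block and 2 with the unadjusted ANOVA of the methods. The z-ratio was above 1.5 at 4 and above 1.8 at 3. Of all 9187 tested probes the ANOVA called 444 higher, and the z-ratio passed these limits at 10.8% and 8.62%. Against IgG1 and IgG2, 0 were called higher, but 1 after quantile normalization, 1 with the block, 1 with the unadjusted ANOVA, and 4 and 1 by the z-ratio limits. Of all tested probes, 318 were called higher after quantile normalization and 437 with the ANOVA, and 10.6% and 7.94% passed the z-ratio limits. A z-ratio below -1.5 was found there for 1 probe, *Stmn3*, and 90.2% of all tested probes had a higher log2 difference than *Stmn3*. The block called the *Map1b* probe ILMN_1362692 (adjusted p = 0.029 from limma) and 338 and 310 of all probes higher and lower. Nothing states that arrays of one replicate number belong together (r = 0.278 over 9187 probes for the difference of numbers 1 and 2). Other microtubule genes called lower against IgG1 and IgG2 went to 5 after quantile normalization, where 236 of all 9187 tested probes were called lower.

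Signs turned mostly for the stathmins. Against 5 IgG arrays the log2 differences were -0.45, -0.13 and 0.028 for *Stmn2*, *Stmn3* and *Stmn4* after quantile normalization, -0.44, -0.14 and 0.048 with neqc, and -0.33, -1.13 and -0.80 for *Stmn1*, *Stmn2* and *Stmn3* with median centring. The block, which compares only TRF2-S arrays with IgG1 and IgG2, gave 0.024 for *Map1a*, 0.11 for *Map4*, -0.11 for *Stmn2*, -0.25 for *Stmn3* and 0.018 for *Stmn4*. With an array left out *Stmn2* ranged over -0.10 to 0.28. Against IgG1 and IgG2 the ranges with an array left out were -0.032 to 0.079 for *Map1a*, -0.23 to 0.75 for *Stmn1*, -0.30 to 0.079 for *Stmn2*, -0.51 to 0.0067 for *Stmn3* and -0.051 to 0.088 for *Stmn4*. Those of *Map1a* are differences of measured values between groups that were not above background, and stand for no fold.

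Between the IgG3-named arrays and IgG1 and IgG2, median centring gave 0 member probes called higher and 0 lower (0 and 30 of all 9187 tested probes). Leaving out IgG3_0 gave 3 higher and 5 lower (4113 and 2339 of all). *Stmn2* was 0.47 and *Stmn4* -5.8e-06 after quantile normalization, *Stmn2* 0.44 and *Stmn4* -0.017 with neqc, and *Stmn1*, *Stmn2* and *Stmn3* were 0.78, 1.65 and 0.88 with median centring. With the IgG3 arrays averaged or as a random block, the *Map1b* probe ILMN_1362692 had 0.76 and 0.80 against the IgG RIP (adjusted p = 0.85 and 0.86 from limma). The cause of these shifts was not tested.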
